A study of Mus musculus with 20 samples.

Results

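The genes described here are 9 genes that mark the pyramidal neurons of the hippocampal subfields CA1, CA2 and CA3, of 25190 genes tested in the hippocampus of 20 mice. They were chosen by name, as known subfield markers: Wfs1, Fibcd1, Pou3f1, Mpped1 and Man1a for CA1, Rgs14, Amigo2 and Pcp4 for CA2, and Bok for CA3. This choice, and that of the marker lists below, was made with earlier results of these data known. All 9 were measured in every library, and none was lost to a filter.

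The pyramidal layer of the hippocampus is a sheet of excitatory neurons divided along its course into CA3, CA2 and CA1, which lie in series in the circuit that carries dentate input through CA3 to CA1. The subfields differ in connections, plasticity and gene expression, and CA2 is known for its resistance to long-term potentiation and for its part in social memory. A gene that is concentrated in one subfield reports, in a piece of mixed tissue, both how much of that subfield is in the piece and how strongly its neurons express the gene. In these bulk samples fewer cells of a type and less RNA per cell cannot be told apart.

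The study asked whether small RNAs from the hippocampus of patients with schizophrenia alter the hippocampus of mice. Wild-type male mice of 4 months, of the strain labelled C57BL/6JOlaHsd, received 2 bilateral infusions of 2 µL, 48 h apart, through cannulas aimed at dorsal CA1. The Vehicle group received artificial cerebrospinal fluid, the Control group small RNAs pooled from 9 unaffected people, and the Pool 1 and Pool 2 groups small RNAs pooled from 10 patients each, at 0.24 µg/µL. Poly(A) RNA of 5 mice per group, taken 24 h after the last behavioural test, was sequenced. Each of the 3 preparations was a single mixture, so the mice of a group share 1 pool of donors and the spread between mice holds no spread between donors. All groups, Vehicle included, had cannulas, infusions and behavioural tests, and no untouched mice were analysed here.

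Libraries held 20588280 to 25543939 counts in genes, with group medians from 22446759 to 23722233, and levels are given as CPM, gene counts relative to the library total scaled by the trimmed mean of M-values (TMM). The sample labels name hippocampal tissue and the series text CA1 tissue. The dentate granule marker Prox1 averaged 116 CPM, and genes of CA2 and CA3 were present in every library, so the pieces were not CA1 alone. A few libraries stood apart in other tissue. The 6 choroid plexus genes summed to 8988 CPM in Vehicle replicate 4 against a median of 226 CPM over the 20 libraries, the 5 astrocyte genes to 2904 CPM in Pool 2 replicate 1 against a median of 1587 CPM, and the 8 thalamus genes to 472 CPM in Pool 2 replicate 4 against a median of 113 CPM. Pool 2 replicate 1 was also highest in the 5 microglia genes (529 CPM, median 251 CPM) and the 5 blood genes (182 CPM, median 62.9 CPM).

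Promoter windows, the 250 bases before the start site, were in the RefSeq table (GRCm38.p6) for 7 of the 9 genes, Rgs14 and Pou3f1 not among them. The windows of 4 genes are shown because they are the base for comparing Pcp4, the single gene past the threshold below, with 1 gene of each subfield. Capitals mark matches to 7 motifs searched on both strands: the POU octamer ATGCAAAT, a first E-box spelled CAGATG, a further E-box form spelled CAGCTG, the cAMP response element TGACGTCA, the TATA box spelled TATAAA, the CCAAT box, and the GC box spelled GGGCGG. No match overlapped another in these 4 windows.
Fibcd1, chr2:31846006-31846255, minus strand: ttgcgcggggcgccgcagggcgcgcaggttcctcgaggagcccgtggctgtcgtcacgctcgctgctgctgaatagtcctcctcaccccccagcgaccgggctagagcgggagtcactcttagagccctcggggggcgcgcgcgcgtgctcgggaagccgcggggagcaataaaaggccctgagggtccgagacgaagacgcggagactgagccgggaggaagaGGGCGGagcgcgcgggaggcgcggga
Amigo2, chr15:97247288-97247537, minus strand: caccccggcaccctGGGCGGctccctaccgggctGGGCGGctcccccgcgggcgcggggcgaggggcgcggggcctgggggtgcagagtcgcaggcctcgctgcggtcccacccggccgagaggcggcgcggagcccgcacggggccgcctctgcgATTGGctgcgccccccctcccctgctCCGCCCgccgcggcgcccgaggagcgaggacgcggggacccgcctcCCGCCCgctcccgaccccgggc
Pcp4, chr16:96467356-96467605, plus strand: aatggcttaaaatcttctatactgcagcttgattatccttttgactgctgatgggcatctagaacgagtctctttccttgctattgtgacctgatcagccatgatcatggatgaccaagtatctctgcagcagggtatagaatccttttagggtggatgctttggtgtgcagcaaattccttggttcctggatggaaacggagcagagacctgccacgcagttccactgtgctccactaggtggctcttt
Bok, chr1:93685325-93685574, plus strand: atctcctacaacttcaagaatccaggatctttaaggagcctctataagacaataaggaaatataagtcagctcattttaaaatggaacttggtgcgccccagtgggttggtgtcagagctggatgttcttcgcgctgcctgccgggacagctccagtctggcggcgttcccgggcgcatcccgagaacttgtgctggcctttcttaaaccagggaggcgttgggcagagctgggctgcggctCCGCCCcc
The Fibcd1 and Amigo2 windows were rich in G and C (71.6% and 84.0%) and held 34 and 38 CpG dinucleotides, the Bok window was intermediate (55.2%, 12 CpG), and the Pcp4 window was the lowest of the 4 (46.8%, 3 CpG). Over 32851 such windows the median was 52.4% and 6 CpG. The GC box was found 1 time in Fibcd1, 4 times in Amigo2 and 1 time in Bok, and CCAAT 1 time in Amigo2. Of all windows, 32.7% hold the GC box, 33.8% CCAAT, 14.4% CAGATG, 13.0% CAGCTG, 12.4% TATAAA, 1.60% ATGCAAAT and 1.55% TGACGTCA. None of the 7 strings was in the Pcp4 window, which says only that these letters are not there. Nor is this particular to Pcp4. A window of the CA1 gene Mpped1, not shown, had 46.8%, 2 CpG and none of the 7 strings. A further window of Mpped1 had 88.8% and 47 CpG.

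To compare levels between genes, CPM was divided by the exon length of each gene (CPM per kb of merged exons, mean ± SD over 20 libraries). Wfs1 was highest at 62.7 ± 20.7, followed by Mpped1 at 49.4 ± 13.0 and Bok at 48.4 ± 13.9, then Rgs14 at 40.6 ± 11.3 and Fibcd1 at 39.1 ± 11.4. A lower tier held Pou3f1 at 17.3 ± 5.42, Amigo2 at 10.3 ± 3.69, Man1a at 9.41 ± 2.88 and Pcp4 at 7.18 ± 1.99. In Pcp4, 243 of the 1026 exon bases are shared with Igsf5 on the same strand. Reads there may be left uncounted, so its level per kb and its last place are uncertain. Neighbours in this order lie closer than the larger of their SDs except Fibcd1 and Pou3f1, and Pou3f1 and Amigo2. The order depends on which exons are counted. Per kb of the longest transcript alone, Rgs14 came first at 72.4 and Wfs1 followed Mpped1 at 62.7. The longest transcript of Rgs14 has 1 exon and 2380 bases, against 4239 merged exon bases. Counts from outside that transcript enter the value, so the first place of Rgs14 is uncertain.

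**Figure D1:**
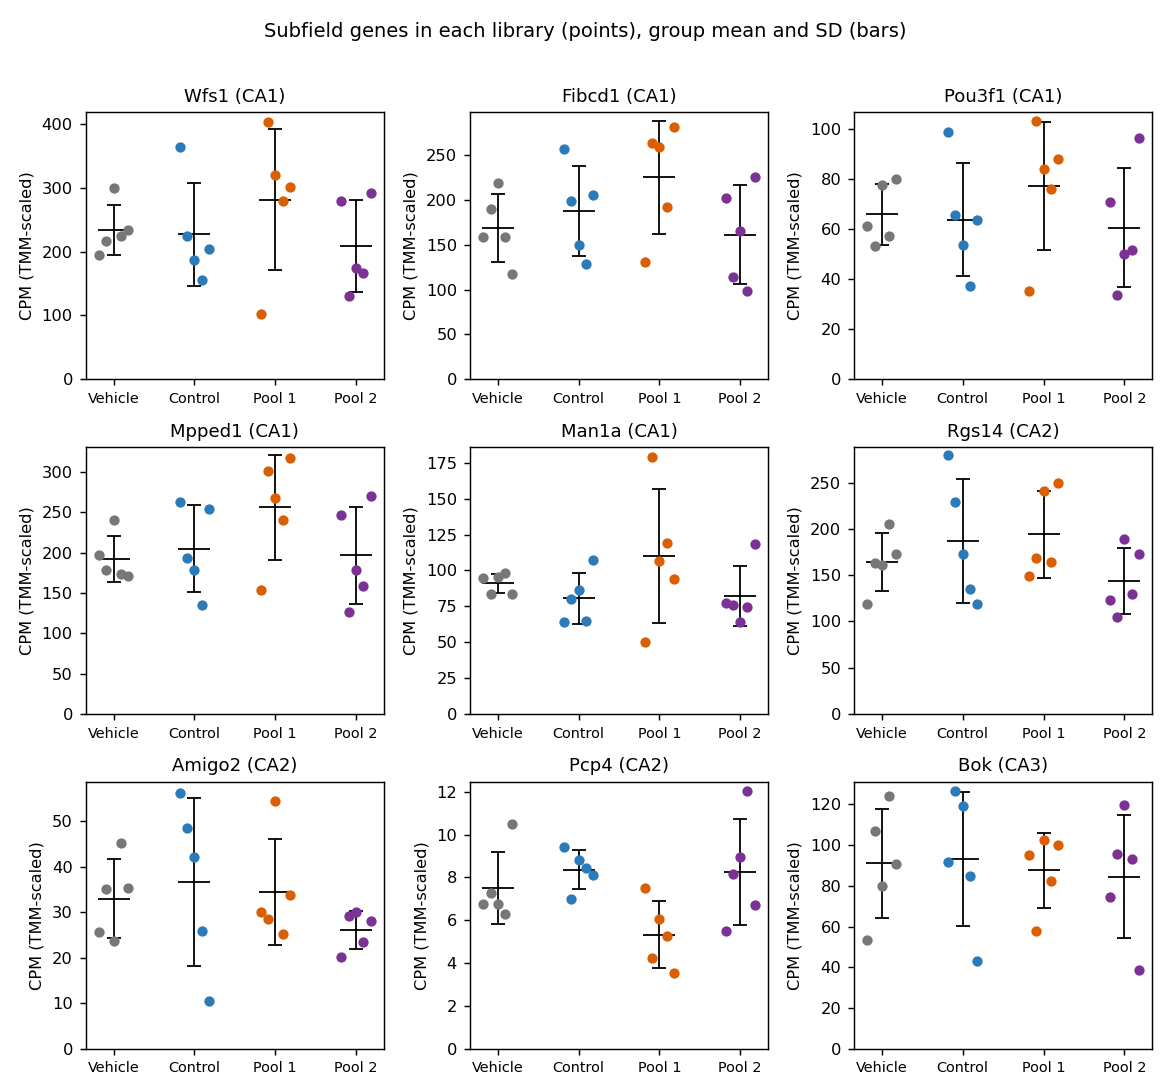
Level of each of the 9 subfield genes (CPM, linear axis from 0) in the 5 libraries of the Vehicle, Control, Pool 1 and Pool 2 groups; points are libraries, and bars give the group mean and SD. Pool 1 replicate 1 lies below the other 4 Pool 1 libraries in all 5 CA1 genes, and 4 of 5 Pool 1 libraries lie below every Control library for Pcp4.

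Wfs1 encodes wolframin, a membrane protein of the endoplasmic reticulum whose loss causes Wolfram syndrome, and is a standard marker of CA1 (ENSMUSG00000039474.13, chromosome 5, 36966104 to 36989205, minus strand, GRCm38). Its level was 195, 216, 299, 224 and 234 CPM in the 5 Vehicle libraries and 365, 224, 187, 155 and 205 CPM in the 5 Control libraries. It was 102, 403, 321, 279 and 301 CPM in Pool 1 and 279, 129.9, 175, 166 and 292 CPM in Pool 2. Pool 1 holds both the lowest and the highest library of all 20, a 3.94-fold span, so the 4 groups overlap. Group means were 234 ± 39.2 CPM (SD, n = 5) in Vehicle, 227 ± 81.1 CPM in Control, 281 ± 111 CPM in Pool 1 and 208 ± 72.6 CPM in Pool 2. The log2 fold change of Wfs1 was 0.31 (SE 0.31, 95% interval -0.34 to 0.96, edgeR adjusted p = 0.957, exact permutation p = 0.579) in Pool 1 against Control, which does not exceed the spread between mice.

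Fibcd1 encodes a transmembrane receptor with a fibrinogen-like domain that binds acetylated groups (ENSMUSG00000026841.7, chromosome 2, 31813290 to 31846005, minus strand). It was measured at 159, 190.5, 219, 159 and 118 CPM in Vehicle and 257, 199, 150.2, 128 and 205 CPM in Control. The Pool 1 libraries held 130.4, 263, 259, 192 and 282 CPM and the Pool 2 libraries 202, 114, 166, 98.9 and 226 CPM. In Pool 1, 3 of 5 libraries were above every Control library, and replicate 1 was the lowest of Pool 1. Group means were 169 ± 38.01, 188 ± 50.4, 225 ± 62.9 and 161 ± 54.9 CPM in Vehicle, Control, Pool 1 and Pool 2 (SD, n = 5). The log2 fold change of Pool 2 against Pool 1 was -0.48 (SE 0.25, 95% interval -1.02 to 0.05, edgeR adjusted p = 0.639, exact permutation p = 0.151), the largest difference among the CA1 genes in that comparison and not past the threshold.

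Pou3f1 encodes a POU-domain transcription factor, also known from Schwann cell development (ENSMUSG00000090125.3, chromosome 4, 124656807 to 124660655, plus strand, a gene of 1 exon). Vehicle libraries held 61.2, 53.1, 77.4, 57.2 and 79.7 CPM of Pou3f1 and Control libraries 98.8, 65.4, 53.4, 37.3 and 63.5 CPM. Pool 1 libraries held 35.1, 103, 84.0, 75.7 and 87.8 CPM and Pool 2 libraries 70.7, 33.7, 50.04, 51.5 and 96.05 CPM. Its order over the libraries is close to that of Wfs1, with the same low library in Pool 1 and in Control. Means were 65.7 ± 12.1, 63.7 ± 22.6, 77.1 ± 25.5 and 60.4 ± 23.8 CPM in the same order of groups (SD, n = 5). The antisense gene Gm2164 covers 330 of the 3849 exon bases of Pou3f1 on the opposite strand and had 56 to 179 counts. Such overlaps were smaller for Man1a (147 bases, Gm16998) and Amigo2 (58 bases, Pced1b).

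Mpped1 encodes a metallophosphoesterase domain protein (ENSMUSG00000041708.12, chromosome 15, 83779467 to 83858494, plus strand). Its level was 197, 178, 241, 173 and 172 CPM in Vehicle and 263, 194, 178, 135 and 255 CPM in Control. It was 153, 301, 267, 241 and 318 CPM in Pool 1 and 247, 126, 179, 159 and 271 CPM in Pool 2. In Pool 1, 4 of 5 libraries were above every Vehicle library, and replicate 1 was below all of them. The group means of Mpped1 were 192 ± 28.9, 205 ± 53.9, 256 ± 64.8 and 197 ± 60.7 CPM (SD, n = 5). Its log2 fold change was 0.41 (SE 0.22, 95% interval -0.05 to 0.88, edgeR adjusted p = 0.838, exact permutation p = 0.119) in Pool 1 against Vehicle.

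Man1a encodes a mannosidase of the Golgi that trims N-linked glycans (ENSMUSG00000003746.16, chromosome 10, 53904785 to 54076609, minus strand). Vehicle libraries held 94.4, 83.7, 95.3, 98.02 and 83.8 CPM and Control libraries 64.1, 79.8, 86.4, 65.04 and 107 CPM of Man1a. Pool 1 libraries held 50.2, 179, 107, 119 and 93.7 CPM and Pool 2 libraries 77.2, 75.6, 64.3, 74.7 and 118 CPM. The Vehicle libraries are tightly grouped, Pool 1 spans the whole range of the 20 libraries, and Pool 2 replicate 5 is apart from the other 4 of its group. Means were 91.05 ± 6.79, 80.5 ± 17.7, 109.8 ± 46.7 and 82.0 ± 20.8 CPM (SD, n = 5). Man1a had the largest log2 fold change of the CA1 genes in Pool 1 against Control, 0.45 (SE 0.24, 95% interval -0.05 to 0.95, edgeR adjusted p = 0.917, exact permutation p = 0.31).

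Over the 5 CA1 genes together, the fold changes in Pool 1 against Control were all above 0, from 0.26 to 0.45 on the log2 scale with a median of 0.31, and 0 of 5 were past the threshold of the study, which asks for a log2 fold change of 0.3 or more in either direction and for p under 0.05 before adjustment. The study also left genes with a mean normalized count under 10 out of its lists, a rule not applied to the counts given here and met by all 9 genes. Of all genes 3.48% were past it. The median over all genes in that comparison was -0.01, and the median absolute value 0.15. In Pool 2 against Pool 1 all 5 were below 0, from -0.48 to -0.35, and again 0 of 5 were past the threshold, against 6.82% of all genes. The 2 comparisons share the Pool 1 libraries. In Pool 2 against Control the 5 values lay between -0.22 and 0.03, and in Control against Vehicle between -0.18 and 0.15. That no CA1 gene was called depended on the method and on single libraries. With all 20 libraries DESeq2 put Man1a past the threshold in Pool 1 against Control (0.45, 2.64% of all genes), Fibcd1 in Pool 2 against Pool 1 (-0.50, 5.68%) and Mpped1 in Pool 1 against Vehicle (0.42, 4.39%). Fibcd1 was also past it with the default estimate of the spread (-0.48, 6.99%), and Mpped1 with the 2 groups fitted alone (0.42, 5.3%). Without Pool 1 replicate 1 Wfs1 (0.52), Mpped1 (0.46) and Man1a (0.63) were past the threshold in Pool 1 against Control, with an edgeR adjusted p of 0.865 for each, where 4.05% of all genes were. Without that library Wfs1, Fibcd1, Mpped1 and Man1a were also past it in Pool 2 against Pool 1 (7.22% of all genes), and Fibcd1, Mpped1 and Man1a in Pool 1 against Vehicle (5.31%). Man1a also came past it in Pool 1 against Control without Control replicate 5 (0.57, 3.93% of all genes), Mpped1 in Pool 1 against Vehicle without Vehicle replicate 3 (0.51, 6.5%), and Fibcd1 (-0.64), Mpped1 (-0.53) and Man1a (-0.59) in Pool 2 against Pool 1 without Pool 2 replicate 5 (7.69%). Pool 1 replicate 1 also had the highest sum of the 8 dentate granule genes of all 20 libraries, 753 CPM against a median of 430 CPM, and the part of this in its low CA1 levels was not tested.

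Rgs14, a scaffold protein with a regulator of G protein signalling domain that restrains plasticity in CA2, lies on chromosome 13 (ENSMUSG00000052087.14, 55369732 to 55384687, plus strand). It was measured at 119, 163, 161, 206 and 173 CPM in Vehicle and 279, 229, 172, 135 and 119 CPM in Control. Pool 1 libraries held 149, 168, 241, 165 and 249.5 CPM and Pool 2 libraries 123, 105, 189, 129 and 172 CPM. Control ranges most widely, with its 2 highest libraries above every Vehicle library, and all groups overlap. The means of Rgs14 were 164 ± 31.1, 187 ± 66.8, 194 ± 47.01 and 144 ± 35.3 CPM (SD, n = 5). Its log2 fold change in Pool 2 against Pool 1 was -0.44 (SE 0.23, 95% interval -0.91 to 0.04, edgeR adjusted p = 0.636, exact permutation p = 0.0873), and in Pool 2 against Control -0.38 (95% interval -0.86 to 0.10). In Pool 2 against Pool 1 it came past the threshold by DESeq2 (-0.45, 5.68% of all genes), with the 2 groups fitted alone (-0.47, 6.12%), without Pool 1 replicate 1 (-0.52, 7.22%) and without Pool 2 replicate 3 (-0.55, 7.07%).

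Amigo2 encodes a cell adhesion protein with leucine-rich repeats (ENSMUSG00000048218.6, chromosome 15, 97244125 to 97247287, minus strand). Vehicle libraries held 25.7, 35.2, 23.7, 45.3 and 35.4 CPM of Amigo2 and Control libraries 56.3, 48.6, 42.3, 26.0 and 10.5 CPM. Pool 1 libraries held 30.1, 28.5, 54.4, 25.2 and 33.9 CPM and Pool 2 libraries 20.3, 29.2, 30.1, 23.4 and 28.01 CPM. It varied most between mice of the 9 genes, 5.37-fold, and both extremes are Control libraries, replicate 1 at the top and replicate 5 at the bottom. The means of Amigo2 were 33.1 ± 8.70, 36.7 ± 18.4, 34.4 ± 11.6 and 26.2 ± 4.19 CPM (SD, n = 5). Its log2 fold change in Pool 2 against Control was -0.49 (95% interval -1.19 to 0.22), and without Control replicate 5 it was -0.72 (edgeR adjusted p = 0.525), as Rgs14 then was -0.51 (edgeR adjusted p = 0.575), both past the threshold, as were 6.78% of all genes.

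Pcp4, also called PEP-19, is a small protein that binds calmodulin and speeds its exchange of calcium, and it is abundant in CA2 and in several other brain regions (ENSMUSG00000090223.2, chromosome 16, 96467606 to 96525793, plus strand). Its level was 6.78, 7.27, 6.78, 6.27 and 10.5 CPM in Vehicle and 9.43, 6.98, 8.79, 8.43 and 8.14 CPM in Control. It was 7.52, 4.26, 6.07, 5.26 and 3.53 CPM in Pool 1 and 5.48, 8.14, 8.96, 12.02 and 6.70 CPM in Pool 2. Of the Pool 1 libraries 4 of 5 lay below every Control library and below every Vehicle library, and the ranges overlap through Pool 1 replicate 1. Means were 7.52 ± 1.69 CPM in Vehicle, 8.35 ± 0.907 CPM in Control, 5.33 ± 1.56 CPM in Pool 1 and 8.26 ± 2.49 CPM in Pool 2 (SD, n = 5). These levels rest on 85 to 288 counts per library, the fewest of the 9 genes.

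In Pool 1 against Control, Pcp4 was the 1 gene of 9 past the threshold, which 3.48% of all genes passed in either direction and 1.99% towards lower values (2.42% in either direction among the 16644 genes that averaged 10 normalized counts or more). It fell by 0.65 on the log2 scale (SE 0.20, 95% interval -1.06 to -0.23). The edgeR adjusted p over all genes was 0.917, so the call does not survive correction, as none of the 25190 genes does in this comparison (smallest adjusted p = 0.421). An exact permutation test of the 5 against 5 log2 values gave a two-sided p = 0.0159, where 0.00794 is the smallest the design allows. Pcp4 remained past the threshold in this comparison in 19 of 19 edgeR and DESeq2 alternatives, the 10 that leave out 1 library included, with log2 fold changes from -0.81 to -0.53 and adjusted p from 0.541 to 0.999. The astrocyte gene Gfap was also past the threshold there, at -0.49, as 1 of 5 astrocyte genes, and its part and that of the other cell types below in the level of Pcp4 was not tested.

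In Pool 2 against Pool 1 the call was again Pcp4 alone, 1 of 9, where 6.82% of all genes passed and 5.66% towards higher values. Pcp4 was higher in Pool 2 by 0.63 (SE 0.20, 95% interval 0.22 to 1.05, edgeR adjusted p = 0.344), a comparison that shares the Pool 1 libraries with the one above. The exact permutation test gave p = 0.0556, and 3 of 5 Pool 2 libraries were above every Pool 1 library. Without Pool 2 replicate 4, the highest of all 20, the log2 fold change was 0.46 and still past the threshold (edgeR adjusted p = 0.537). Among markers of other cell types, 2 of 5 astrocyte genes (Gfap at 0.98 and Aqp4 at 0.49), 3 of 5 microglia genes (Aif1 at 1.15, Csf1r at 0.47 and Cx3cr1 at 0.39) and 3 of 5 blood genes (0.68 to 0.76) were higher past the threshold in the same comparison. The astrocyte sum was 1338 to 1564 CPM in Pool 1 and 1529 to 2904 CPM in Pool 2. Without Pool 2 replicate 1, which was highest in all 3 lists, Gfap (0.70) and Aqp4 (0.46) stayed past the threshold. Then 0 of 5 microglia and 0 of 5 blood genes did, where 4.72% of all genes passed. Pcp4 was then at 0.75 and past it.

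In Pool 1 against Vehicle Pcp4 was once more the 1 gene of 9 past the threshold, where 5.34% of all genes passed and 4.28% towards lower values. It fell by 0.49 (SE 0.20, 95% interval -0.91 to -0.08, edgeR adjusted p = 0.692), and the exact permutation test gave p = 0.0635. The call was lost without Vehicle replicate 5 (-0.35), without Pool 1 replicate 2 (-0.42) and without Pool 1 replicate 5 (-0.38). Lower past the threshold in Pool 1 against Vehicle were also 1 of 5 microglia, 1 of 6 oligodendrocyte and 1 of 5 neocortex genes. These counts were the same without Vehicle replicate 4 (4.15% of all genes). The 6 choroid plexus genes were all past the threshold towards lower values in this comparison (median -3.73), with sums of 104 to 295 CPM in Pool 1 and 207 to 8988 CPM in Vehicle. Without Vehicle replicate 4 only Clic6 of the 6 was past it (-1.93), while Pcp4 was at -0.55 and still past it. Pool 2 did not differ from Control by an amount this test can resolve, -0.01 (95% interval -0.42 to 0.39) on the log2 scale, nor did Control from Vehicle, 0.15 (95% interval -0.26 to 0.56).

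Pcp4 overlaps another gene on its own strand. Igsf5 shares 243 of the 1026 exon bases of Pcp4 (23.7%), and a counter that assigns a read to 1 gene leaves reads in shared bases to neither. Igsf5 had 0 to 14 counts per library, with group means of 0.199 CPM in Vehicle, 0.0511 CPM in Control, 0.202 CPM in Pool 1 and 0.127 CPM in Pool 2. At these low counts Igsf5 was itself past the threshold, at 1.90 in Pool 1 against Control (edgeR adjusted p = 0.917), the direction opposite to Pcp4, and at -1.85 in Control against Vehicle (edgeR adjusted p = 0.734). Both genes are therefore uncertain in the shared bases.

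Bok, a member of the BCL-2 family of cell death regulators and a marker of CA3, lies on chromosome 1 (ENSMUSG00000026278.14, 93685660 to 93695764, plus strand). Vehicle libraries held 53.2, 107, 79.7, 124 and 90.8 CPM of Bok and Control libraries 91.8, 126, 119, 84.8 and 43.2 CPM. Pool 1 libraries held 95.1, 57.6, 102, 82.5 and 99.96 CPM and Pool 2 libraries 74.7, 95.8, 119.8, 93.2 and 38.9 CPM. It varied 3.25-fold between mice, and the low libraries are spread over all 4 groups. The means of Bok were 90.9 ± 26.9, 93.1 ± 33.03, 87.5 ± 18.4 and 84.5 ± 30.1 CPM (SD, n = 5), and 1.53% of its variance on the log2 scale lay between groups, the least of the 9 genes, against 43.9% for Pcp4, the most. In the 6 comparisons its log2 fold changes lay between -0.14 and 0.03. For Pool 1 against Control the value was -0.09 (95% interval -0.73 to 0.55), an interval that still allows a change of over 0.5 in either direction.

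**Figure D2:**
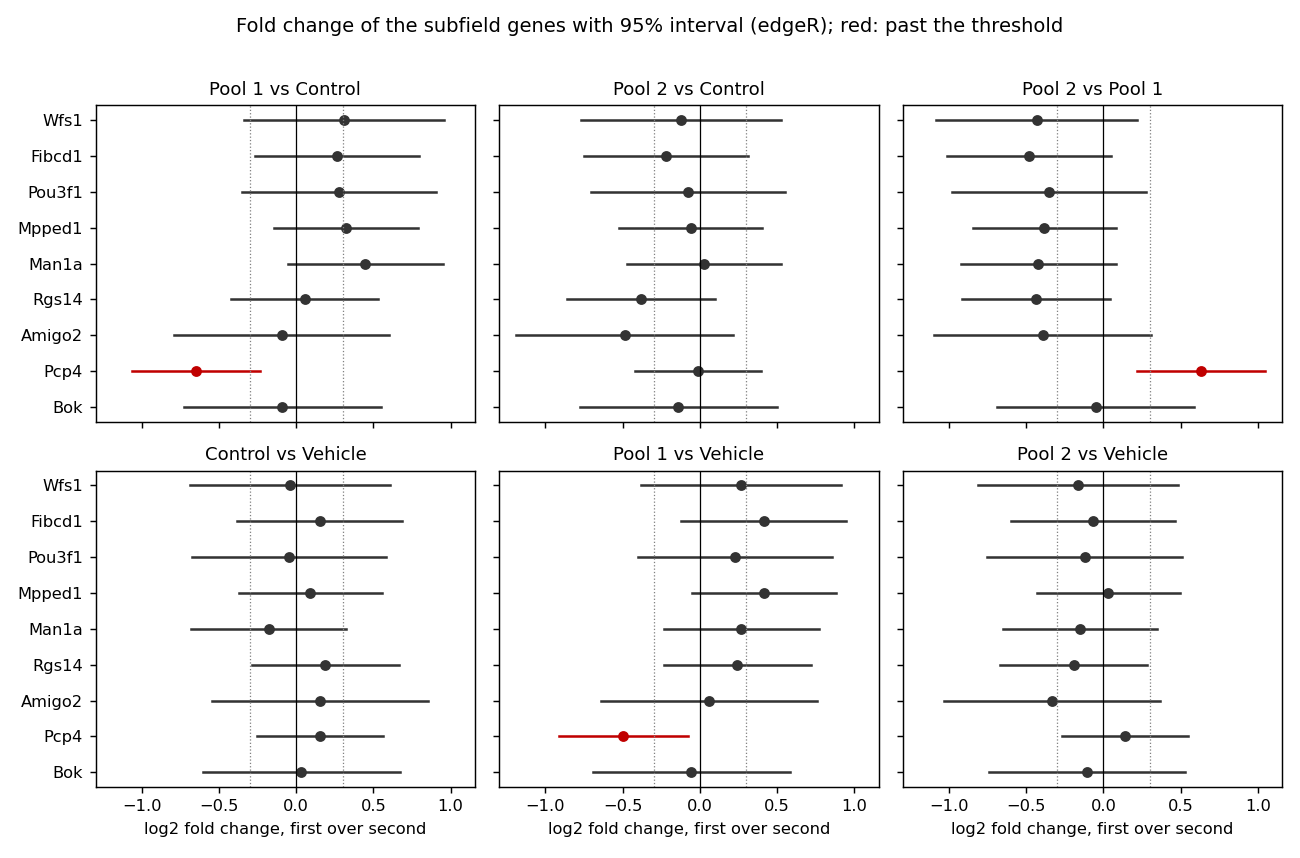
Log2 fold changes of the 9 genes (points) with 95% intervals (lines) in the 6 comparisons of groups, first group over second, from edgeR; dotted lines mark a fold change of 0.3 on the log2 scale and red marks genes past the threshold. Pcp4 is red in Pool 1 vs Control (-0.65), Pool 2 vs Pool 1 (0.63) and Pool 1 vs Vehicle (-0.49), and the 5 CA1 genes lie to the right of 0 in the first and to the left in the second.

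Over the 6 comparisons the log2 fold changes of Wfs1 were 0.31 in Pool 1 against Control, -0.12 in Pool 2 against Control, -0.43 in Pool 2 against Pool 1, -0.04 in Control against Vehicle, 0.27 in Pool 1 against Vehicle and -0.17 in Pool 2 against Vehicle. Fibcd1 stood at 0.26 in Pool 1 against Control, -0.22 in Pool 2 against Control, -0.48 in Pool 2 against Pool 1, 0.15 in Control against Vehicle, 0.41 in Pool 1 against Vehicle and -0.07 in Pool 2 against Vehicle. Pou3f1 had values of 0.28 in Pool 1 against Control, -0.08 in Pool 2 against Control, -0.35 in Pool 2 against Pool 1, -0.05 in Control against Vehicle, 0.23 in Pool 1 against Vehicle and -0.12 in Pool 2 against Vehicle. None of these 3 genes was past the threshold in any comparison under the robust edgeR fit of all 20 libraries, and their values were above 0 in Pool 1 against Control and below 0 in Pool 2 against Pool 1.

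Mpped1 was at 0.32 in Pool 1 against Control, -0.06 in Pool 2 against Control, -0.38 in Pool 2 against Pool 1, 0.09 in Control against Vehicle, 0.41 in Pool 1 against Vehicle and 0.03 in Pool 2 against Vehicle. For Man1a the values were 0.45 in Pool 1 against Control, 0.03 in Pool 2 against Control, -0.42 in Pool 2 against Pool 1, -0.18 in Control against Vehicle, 0.27 in Pool 1 against Vehicle and -0.15 in Pool 2 against Vehicle. Both were above 0 in Pool 1 against Control and Vehicle and below 0 in Pool 2 against Pool 1, comparisons that share the Pool 1 libraries. Of the CA2 genes, Rgs14 gave 0.06 in Pool 1 against Control, -0.38 in Pool 2 against Control, -0.44 in Pool 2 against Pool 1, 0.19 in Control against Vehicle, 0.24 in Pool 1 against Vehicle and -0.19 in Pool 2 against Vehicle. Amigo2 was at -0.09 in Pool 1 against Control, -0.49 in Pool 2 against Control, -0.39 in Pool 2 against Pool 1, 0.15 in Control against Vehicle, 0.06 in Pool 1 against Vehicle and -0.33 in Pool 2 against Vehicle. Rgs14 and Amigo2 were both below 0 in the 3 comparisons of Pool 2, which share its libraries. Pcp4 showed -0.65 in Pool 1 against Control, -0.01 in Pool 2 against Control, 0.63 in Pool 2 against Pool 1, 0.15 in Control against Vehicle, -0.49 in Pool 1 against Vehicle and 0.14 in Pool 2 against Vehicle. Bok had the narrowest range of the 9 genes, with -0.09 in Pool 1 against Control, -0.14 in Pool 2 against Control, -0.05 in Pool 2 against Pool 1, 0.03 in Control against Vehicle, -0.06 in Pool 1 against Vehicle and -0.11 in Pool 2 against Vehicle.

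For Pool 2 against Control, Control against Vehicle and Pool 2 against Vehicle 0 of 9 genes were past the threshold, by edgeR and by DESeq2 alike, and 0 of 9 had an unadjusted p under 0.05. Of all genes 6.22% passed in Pool 2 against Control, 5.1% in Control against Vehicle and 4.69% in Pool 2 against Vehicle, and 7.7%, 6.64% and 5.5% had an unadjusted p under 0.05. A test of any difference among the 4 groups called 0 of 9 at an adjusted p under 0.05 by edgeR, as it called 0 of 25190 genes. At an unadjusted p under 0.05 it called 1981 genes (7.86%), Pcp4 alone of the 9 among them (edgeR adjusted p = 0.529). DESeq2 called 161 genes among the 4 groups, none of the 9 among them.

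The CA1 genes varied together from mouse to mouse over the 20 libraries. Of the 36 pairs of the 9 genes, 19 had an adjusted permutation p under 0.05 for Pearson's r of log2 CPM over the 20 libraries (Benjamini-Hochberg over 36 pairs), and 17 for Spearman's rho. All 10 pairs within CA1 passed by r and 9 by rho, with r from 0.52 to 0.95 and a median of 0.80, and from 0.48 to 0.95 on deviations from the group means. Within single groups of 5 libraries, all 10 were above 0 in Pool 1 and in Pool 2, 8 in Vehicle and 8 in Control, where the exceptions were Fibcd1 with Pou3f1 (-0.24) and Pou3f1 with Man1a (-0.07) in Vehicle, and Wfs1 with Man1a (-0.27) and Pou3f1 with Man1a (-0.02) in Control. The closest pair was Wfs1 and Pou3f1 (r = 0.95, rho = 0.95, p = 1e-05, the smallest that the permutations can give, adjusted p = 7.2e-05). Without the 2 libraries farthest from the median of Wfs1 its r was 0.94, and computed on deviations from the group means 0.95. Fibcd1 and Mpped1 were next (r = 0.91, rho = 0.95, p = 1e-05, adjusted p = 7.2e-05, 0.92 without 2 libraries, 0.90 about the group means). Man1a was the loosest of the CA1 genes. Its r with Wfs1 was 0.66 (rho = 0.55, p = 0.00142, adjusted p = 0.00568), which fell to 0.40 without the 2 libraries farthest from the median, and its r with Fibcd1 was 0.52 (rho = 0.49, p = 0.0197, adjusted p = 0.0375, 0.51 without 2 libraries). The pair of Man1a and Fibcd1 did not pass by rho (adjusted permutation p = 0.0572).

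The CA2 genes did not form 1 group. Rgs14 and Amigo2 varied together (r = 0.76, rho = 0.77, p = 0.00011, adjusted p = 0.000566, 0.78 without 2 libraries, 0.75 about the group means). Pcp4 did so with neither, with r = -0.24 for Rgs14 (rho = -0.14, p = 0.3, adjusted p = 0.391) and -0.01 for Amigo2 (rho = 0.11, p = 0.975, adjusted p = 0.975). Pcp4 was instead opposed to the CA1 genes, and 4 of its 5 pairs with them passed. The strongest was with Fibcd1 (r = -0.69, rho = -0.65, p = 0.00076, adjusted p = 0.00342, -0.62 without 2 libraries, -0.67 about the group means). It was followed by Mpped1 (r = -0.65, rho = -0.63, p = 0.00207, adjusted p = 0.00677, -0.58 without 2 libraries), Man1a (r = -0.57, rho = -0.65, p = 0.00956, adjusted p = 0.0229, -0.51 without 2 libraries) and Wfs1 (r = -0.52, rho = -0.57, p = 0.0198, adjusted p = 0.0375, -0.49 without 2 libraries). On deviations from the group means the r of the 4 pairs was -0.67, -0.56, -0.48 and -0.50. Within single groups of 5 libraries it was below 0 for all 4 in Pool 1 (-0.88 to -0.61) and in Pool 2 (-0.82 to -0.40), but in Control it was above 0 for Fibcd1 (0.08), Mpped1 (0.19) and Wfs1 (0.34), and in Vehicle for Wfs1 (0.02). Rgs14 went with 3 CA1 genes in the positive direction. These were Fibcd1 (r = 0.58, rho = 0.48, p = 0.00737, adjusted p = 0.019, 0.46 without 2 libraries), Pou3f1 (r = 0.55, rho = 0.54, p = 0.0129, adjusted p = 0.0288, 0.45 without 2 libraries) and Wfs1 (r = 0.55, rho = 0.57, p = 0.0136, adjusted p = 0.0288, 0.65 without 2 libraries). The pair of Rgs14 and Fibcd1 passed by r alone (adjusted permutation p = 0.0588 for rho).

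Bok varied with Amigo2 (r = 0.65, rho = 0.71, p = 0.00189, adjusted p = 0.00677, 0.56 without 2 libraries, 0.65 about the group means). Its 5 pairs with CA1 genes had r from -0.49 to -0.24, and 0 of 5 passed. The difference between the mean log2 CPM of the CA1 genes and that of Bok ranged from 0.05 to 1.27 in Vehicle, -0.01 to 1.78 in Control, -0.22 to 1.97 in Pool 1 and -0.15 to 2.23 in Pool 2, and the 4 ranges overlap.

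**Figure D3:**
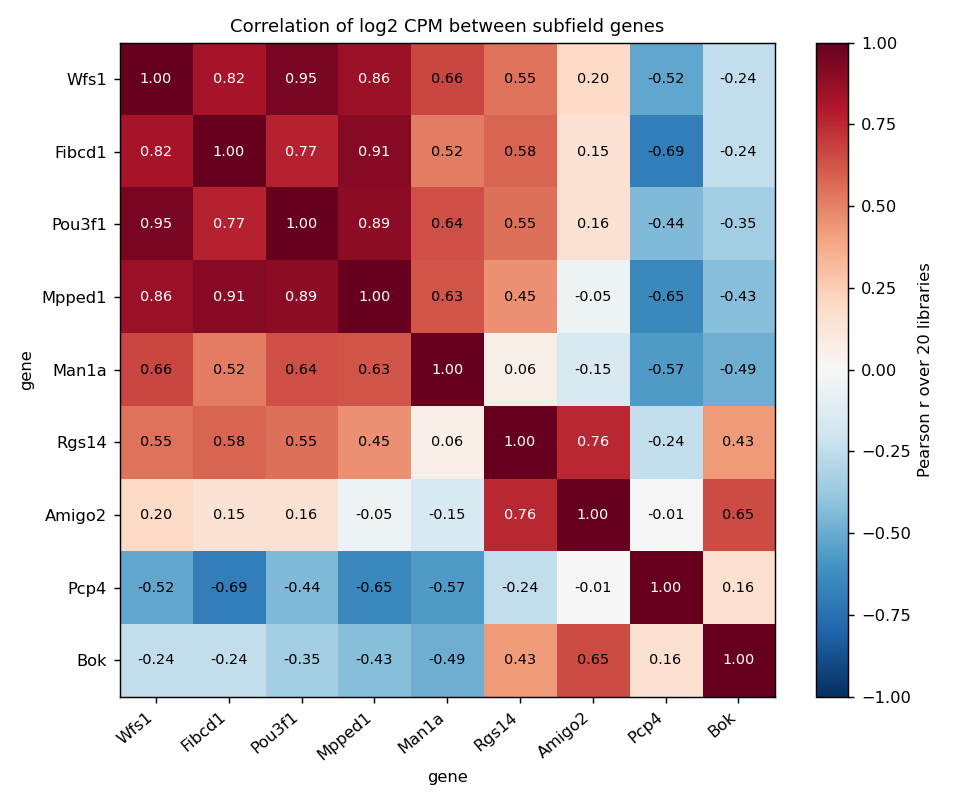
Pearson's r of log2 CPM between the 9 subfield genes over 20 libraries, with both axes listing the genes from CA1 to CA3 and colour running from -1 (blue) to 1 (red). The 5 CA1 genes form a red block (0.52 to 0.95), Rgs14 and Amigo2 pair at 0.76, and Pcp4 is blue against the CA1 genes (-0.69 to -0.44).

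Other markers of the subfields, listed by name for each region, showed the same division when their summed CPM was set against each gene. Of 126 relations of 9 genes and 14 lists, 26 had an adjusted permutation p under 0.05 for Pearson's r and 29 for Spearman's rho. In the relations with lists, here and below, the 2 libraries left out were those farthest from the median of the list sum. The sum of 6 other CA1 genes followed all 5 CA1 genes, from r = 0.75 for Man1a (rho = 0.68, p = 0.00015, adjusted p = 0.00172, 0.68 without 2 libraries) to 0.97 for Mpped1 (rho = 0.97, p = 1e-05, adjusted p = 0.00021, 0.97 without 2 libraries), and was opposed to Pcp4 (r = -0.61, rho = -0.62, p = 0.00392, adjusted p = 0.0236, -0.54 without 2 libraries). The sum of 8 other CA2 genes followed Amigo2 at 0.90 (rho = 0.89, p = 1e-05, adjusted p = 0.00021, 0.85 without 2 libraries) and Rgs14 at 0.70 (rho = 0.67, p = 0.00083, adjusted p = 0.00747, 0.63 without 2 libraries), and its r with Pcp4 was 0.10 (rho = 0.15, p = 0.675, adjusted p = 0.851, 0.10 without 2 libraries). The sum of 8 other CA3 genes followed Bok at 0.91 (rho = 0.89, p = 1e-05, adjusted p = 0.00021, 0.86 without 2 libraries). The list of other CA2 genes also followed Bok, at 0.71 (rho = 0.81, p = 0.00047, adjusted p = 0.00494, 0.64 without 2 libraries). The other CA3 genes also went with Amigo2 (r = 0.61, rho = 0.59, p = 0.00394, adjusted p = 0.0236, 0.45 without 2 libraries) and were opposed to Mpped1 (r = -0.57, rho = -0.54, p = 0.00933, adjusted p = 0.0452, -0.51 without 2 libraries), and the 3 subiculum genes were opposed to Bok (r = -0.57, rho = -0.65, p = 0.00876, adjusted p = 0.0442, -0.65 without 2 libraries). In these relations Pcp4 was the one member that did not follow the summed other markers of its own subfield.

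Of these other markers, single genes were past the threshold. Of all genes 5.34% passed it in Pool 1 against Vehicle and 6.82% in Pool 2 against Pool 1. In Pool 2 against Control 6.22% of all genes passed, and in Pool 2 against Vehicle 4.69%. Of 6 other CA1 genes 1 was past the threshold in Pool 1 against Vehicle, Itpka, a kinase of inositol trisphosphate, at 0.35, and the same gene at -0.35 in Pool 2 against Pool 1. Of 8 other CA2 genes 1 was past it in each of 3 comparisons: the vasopressin receptor Avpr1b at -1.20 in Pool 2 against Control, Sostdc1 at -1.96 in Pool 1 against Vehicle and Map3k15 at -0.68 in Pool 2 against Vehicle. Sostdc1 is also expressed by choroid plexus. It was 59.7 CPM in Vehicle replicate 4, the library with the most choroid plexus RNA, against a Vehicle median of 6.87 CPM, and without that library its value in Pool 1 against Vehicle was -0.59 and not past the threshold. Of 8 other CA3 genes and 8 dentate granule genes 0 were past it in any of the 6 comparisons. Of 5 genes of all pyramidal neurons 1 was, the transcription factor Neurod6 at -0.42 in Pool 2 against Control. Of 3 subiculum genes 2 were past it in Pool 2 against Control, Fn1, which encodes fibronectin, at 0.74 and the vesicular glutamate transporter gene Slc17a6 at 1.499, and Slc17a6 also in Pool 2 against Pool 1 at 1.58. Without Pool 2 replicate 4, the library with the highest thalamus sum (472 CPM), Slc17a6 was past it in neither (1.04 and 1.13). The part of thalamic tissue in the level of Slc17a6 was not tested. Without Pool 2 replicate 1 Avpr1b (-1.13), Fn1 (0.63) and Map3k15 (-0.53) were not past it. Of the 8 other CA2 genes 0 were past it without Pool 2 replicate 4, in Pool 2 against Control (6.24% of all genes) and against Vehicle (4.47%). In Pool 2 against Vehicle 0 of 8 were without Vehicle replicate 4 (3.36% of all genes). Of the 6 other CA1 genes 2 were past it in Pool 2 against Pool 1 without Pool 2 replicate 1 (4.72% of all genes). Itpka was not past it without Pool 2 replicate 4 (-0.31) or, against Vehicle, without Vehicle replicate 4 (0.30). The median over the 6 other CA1 genes in Pool 1 against Control was 0.32 and in Pool 2 against Pool 1 -0.42, close to the medians of the 5 CA1 members, 0.31 and -0.42.

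Markers of neighbouring tissue moved with these genes. The sum of the 8 dentate granule genes was opposed to Wfs1 (r = -0.76, rho = -0.76, p = 0.00012, adjusted p = 0.00168, -0.64 without 2 libraries) and to Rgs14 (r = -0.75, rho = -0.70, p = 0.00015, adjusted p = 0.00172, -0.82 without 2 libraries). It was also opposed to Pou3f1 (r = -0.70, rho = -0.65, p = 0.00074, adjusted p = 0.00717, -0.53 without 2 libraries), Fibcd1 (r = -0.63, rho = -0.61, p = 0.00354, adjusted p = 0.0235, -0.55 without 2 libraries), Amigo2 (r = -0.60, rho = -0.53, p = 0.00463, adjusted p = 0.0265, -0.70 without 2 libraries) and Mpped1 (r = -0.60, rho = -0.57, p = 0.00612, adjusted p = 0.0335, -0.45 without 2 libraries). The sum of the 8 thalamus genes, which include the transcription factors Tcf7l2 and Lef1, was opposed to Fibcd1 (r = -0.78, rho = -0.79, p = 2e-05, adjusted p = 0.00036, -0.65 without 2 libraries) and Mpped1 (r = -0.75, rho = -0.78, p = 4e-05, adjusted p = 0.00063, -0.77 without 2 libraries), and likewise to Pou3f1 (r = -0.62, rho = -0.75, p = 0.00269, adjusted p = 0.0212, -0.61 without 2 libraries) and Wfs1 (r = -0.62, rho = -0.74, p = 0.00341, adjusted p = 0.0235, -0.57 without 2 libraries). It went with Pcp4 (r = 0.64, rho = 0.63, p = 0.00288, adjusted p = 0.0213, 0.54 without 2 libraries, 0.50 about the group means). The sum of the 6 interneuron genes went with Rgs14 (r = 0.64, rho = 0.57, p = 0.00228, adjusted p = 0.0192, 0.54 without 2 libraries) and Pou3f1 (r = 0.57, rho = 0.65, p = 0.00822, adjusted p = 0.0432, 0.71 without 2 libraries). The sum of the 5 neocortex genes passed by rho alone with Wfs1 (r = -0.55, rho = -0.58, adjusted permutation p = 0.0545 for r and 0.0404 for rho), Fibcd1 (r = -0.54, rho = -0.56, 0.0545 and 0.0477) and Pou3f1 (r = -0.49, rho = -0.56, 0.0914 and 0.0478). So did the interneuron genes with Wfs1 (r = 0.53, rho = 0.64, 0.0668 and 0.0168). The subiculum genes did so with Amigo2 (r = -0.52, rho = -0.71, 0.074 and 0.00543). Passing by r alone were the dentate genes with Amigo2 (0.068 for rho) and the other CA3 genes with Mpped1 (0.0573 for rho). By group the thalamus sum ranged from 102 to 144 CPM in Vehicle, 67.7 to 180.4 CPM in Control, 57.4 to 99.2 CPM in Pool 1 and 96.2 to 472 CPM in Pool 2. Of the 8 thalamus genes 8 were past the threshold towards higher values in Pool 2 against Pool 1, 5 in Pool 2 against Control and 6 in Pool 2 against Vehicle (7, 2 and 5 without Pool 2 replicate 4), and towards lower values 1 in Pool 1 against Control (Zic1, at -1.12) and 2 in Pool 1 against Vehicle (Zic1 at -1.69 and Lef1 at -0.62). Of all genes 6.82%, 6.22% and 4.69% passed in the Pool 2 comparisons, in that order, and 6.73%, 6.24% and 4.47% without Pool 2 replicate 4. In Pool 1 against Control 3.48% of all genes passed, and in Pool 1 against Vehicle 5.34%. The 4 thalamus genes with the smallest p in Pool 2 against Pool 1 were Lef1 (1.26), Zic1 (1.86), Tcf7l2 (2.18) and Synpo2 (1.60). The part of thalamic and dentate tissue in the levels of Pcp4 and the CA1 genes was not tested.

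**Figure D4:**
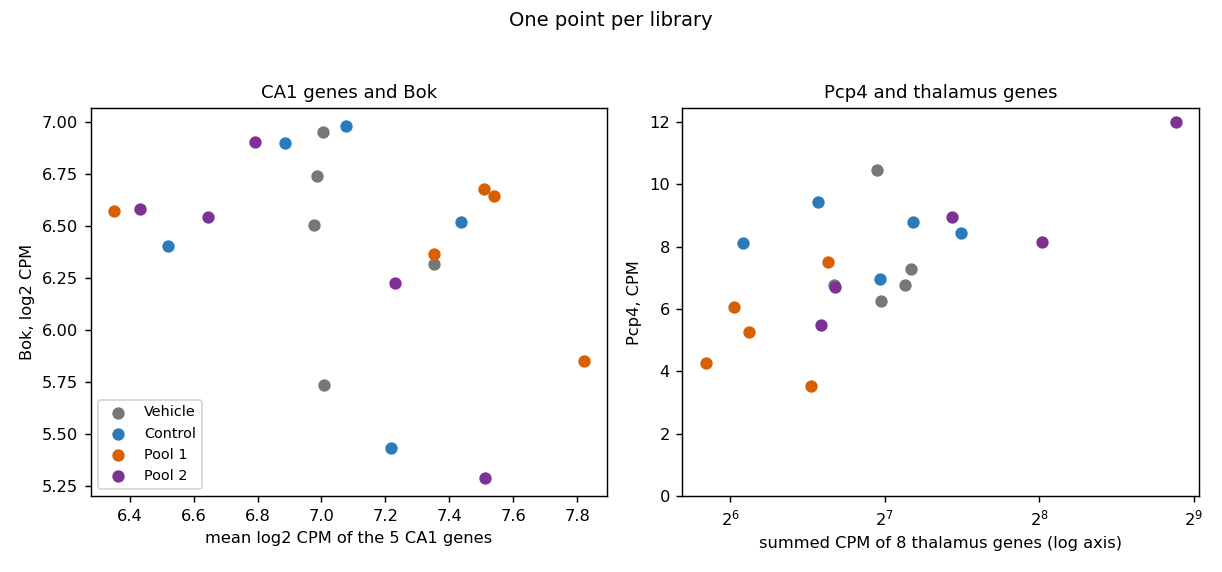
Left, Bok (log2 CPM) against the mean log2 CPM of the 5 CA1 genes; right, Pcp4 (CPM) against the summed CPM of 8 thalamus genes on a log axis, with 1 point per library coloured by group. On the right, Pool 2 replicate 4 is highest on both axes (472 CPM and 12.02 CPM) and 4 of 5 Pool 1 libraries lie at the lower left.

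**Figure D5:**
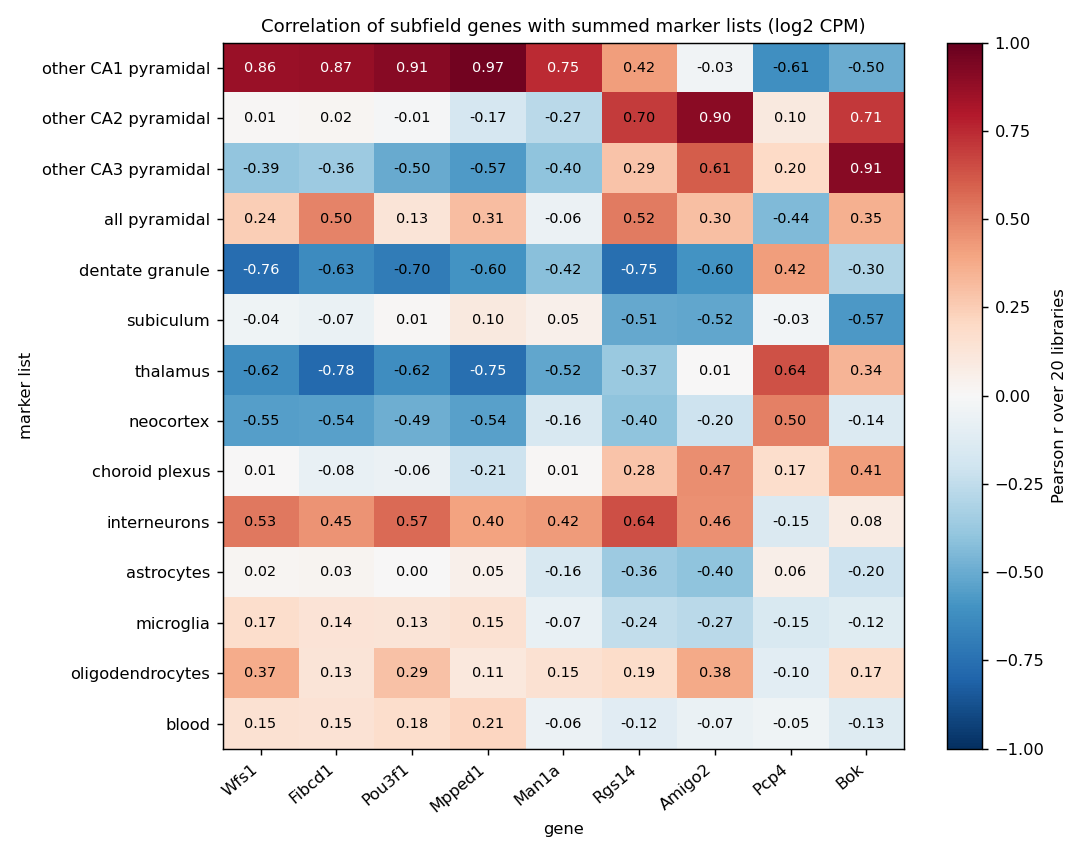
Pearson's r over 20 libraries between the log2 CPM of each subfield gene (columns) and the log2 summed CPM of each of 14 marker lists (rows), with colour running from -1 (blue) to 1 (red). Each CA1 gene is red with the other CA1 markers (0.75 to 0.97), Bok with the other CA3 markers (0.91) and Pcp4 with the thalamus list (0.64).

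Among 13554 other genes with a mean of at least 1 CPM, those whose log2 level over the 20 libraries was most like the mean of the 5 CA1 genes were Map4 (r = 0.96), which encodes a microtubule-associated protein, Cpne8 (0.96), BC030500 (0.93), Stac (0.93) and Vxn (0.92). Among the genes most like the mean of the 3 CA2 genes were Gnas (0.85), Necab2 (0.84), a calcium-binding protein that is also among the other CA2 markers, Rem2 (0.84) and Tmem178 (0.84). Most like Bok were the glypican Gpc1 (0.96), the postsynaptic scaffold gene Homer3 (0.95), which is also among the other CA3 markers, Kcnk4 (0.91), Cidea (0.91) and Hs3st4 (0.90). These r values describe the 20 libraries, and carry no test.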

How the data were processed

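Poly(A) RNA of 20 mouse hippocampal samples, 5 per group, was sequenced as 50 nt single-end reads from a stranded kit. The authors aligned the reads with STAR to GRCm38 (mm10) and deposited raw read counts per gene, and 2 rounds of sequencing per sample are given in the labels. Which strand column of the counts was kept is not given in the sources used here. The deposited counts were tested as they stand with edgeR 4.0.16 in R 4.3.3 (TMM, robust quasi-likelihood fit of all 20 libraries, Benjamini-Hochberg over 25190 genes, 95% intervals). A gene was past the threshold when its log2 fold change was 0.3 or more in either direction with p under 0.05 before adjustment, as in the study, whose further rule of a mean normalized count of at least 10 was an alternative. DESeq2 1.42.0, other size factors, filters and spreads, a replicate block, 18 libraries, the 2 groups alone, single left-out libraries and exact permutation tests were alternatives. CPM used TMM-scaled totals, and log2 CPM a prior count of 2. A level of 3 counts was the floor. Correlations used 100000 permutations (two-sided) in Python 3.11.15 with numpy 2.4.6. All 9 genes are named in every comparison. Of the subfield marker lists every gene past the threshold in the fit of all 20 libraries is named. Thalamus genes are named in Pool 1 against Control and Vehicle and, for the 4 with the smallest p, in Pool 2 against Pool 1. Elsewhere the marker lists are given by counts or by some names only. Genes most like a target are the 5 with the highest r, names starting with Gm or ending in Rik left out. One gene that this rule names for CA2 is not reported here. The members and lists were chosen with earlier results of these data known. The labels number the libraries of a group 1 to 5 and name no animals, so p-values measure the spread between these libraries. No replicates agreed within sampling noise. The fit and the permutation tests were tested on simulated data.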

Additional observations from a re-analysis of the deposited data

Results flagged for a closer look

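Of 36 sets of 5 libraries (9 genes in 4 groups), 2 held a library far from the other 4 of its group, where the gap to its nearest neighbour took over 0.71 of the group's range. Chance alone flags about 1 in 20 such sets. Man1a was 118 CPM in Pool 2 replicate 5, against 64.3 to 77.2 CPM in the other 4 Pool 2 libraries. Pcp4 was 10.5 CPM in Vehicle replicate 5, against 6.27 to 7.27 CPM in the other 4 Vehicle libraries, and without that library the difference between Pool 1 and Vehicle was -0.35 on the log2 scale and not past the threshold.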

How the results depend on the processing

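No result for a single gene changed direction with a call under any alternative. In Pool 1 against Control DESeq2 put 2 members past the threshold (Man1a, Pcp4; 2.64% of all genes), and leaving out single libraries gave 1 to 4 (2.85% to 4.96% of all genes). In Pool 2 against Pool 1 DESeq2 gave 3 (Fibcd1, Rgs14, Pcp4; 5.68% of all genes), the default spread 2 (6.99%), the 2 groups alone 2 (6.12%), the exact permutation test 0 and single left-out libraries 1 to 6 (4.72% to 8.21%), the 6 without Pool 1 replicate 1 (7.22%). Without Pool 2 replicate 5 it was 4. In Pool 1 against Vehicle DESeq2 gave 2 (4.39%) and the 2 groups alone 2 (5.3%), Mpped1 and Pcp4 in both, the exact permutation test 0 and single left-out libraries 0 to 4 (4.15% to 6.5%). In Pool 2 against Control single left-out libraries gave 0 to 2 (4.48% to 7.22%). The number of correlated pairs, 19, stayed between 14 and 20. With the replicate number as a block, Pcp4 remained the 1 member past the threshold in each of its 3 comparisons (log2 fold change -0.65 in Pool 1 against Control). No member's call changed with the block. Of all genes 3.01% then passed in Pool 1 against Control, 6.16% in Pool 2 against Pool 1 and 4.72% in Pool 1 against Vehicle. Over 30 pairs of libraries with the same number the deviations from group means had r from -0.37 to 0.30 with a median of 0.02, and 2 of 20 libraries correlated best with one of their own number, so the numbers do not pair the mice. Over all genes, filters on low counts (a mean of 10, or filterByExpr) lowered the calls from 876 to 402 and 426 in Pool 1 against Control, from 1566 to 969 and 960 in Pool 2 against Control, from 1285 to 795 and 821 in Control against Vehicle, from 1345 to 795 and 776 in Pool 1 against Vehicle and from 1181 to 703 and 723 in Pool 2 against Vehicle, and the mean of 10 from 1718 to 1133 in Pool 2 against Pool 1. Without Vehicle replicate 4 and Pool 2 replicate 1, Pool 2 against Vehicle gave 786. The test among the 4 groups called 0 genes in the main analysis and 161 by DESeq2, 1 each with the default spread, the replicate block, 18 libraries and the newer edgeR method, and up to 3 without single libraries, with none of the 9 members among them. Of 1080 values of single genes under alternatives, 981 kept their side of the threshold and were not counted as moved, 68 moved, 26 came to pass and 5 ceased to. A value not counted as moved could still differ in size. Pcp4 in Pool 2 against Control was -0.19 without Pool 2 replicate 4, against -0.01 with all libraries. edgeR's newer quasi-likelihood method was chosen after seeing the data. With 5 mice a group the 95% intervals of the log2 fold changes reach 0.41 to 0.70 on either side, and changes within them were not detectable.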

Other observations

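The genes most like Pcp4, a target added after its values were seen, were Cited2 (0.74), Cstf3 (0.73), Snx6 (0.72), Pdlim3 (0.71) and Nexn (0.71) over the 20 libraries. Among the listed markers, single genes did not all follow their list. Actn2, listed for CA2, had r = -0.81 with the mean of the CA1 genes and -0.06 with the mean of Rgs14 and Amigo2, while Necab2 and Avpr1b, of the same list, had 0.89 and 0.88 with the latter. Ntf3, also listed for CA2, had r = 0.59 with Pcp4 and 0.25 with the mean of Rgs14 and Amigo2. The other listed CA2 genes had r with Pcp4 from -0.22 (Avpr1b) to 0.31 (Actn2). Ccn3, listed for CA1, had r = 0.65 with the CA1 genes and -0.71 with Bok. Of 45 relations of the 9 genes with the lists of astrocytes, microglia, oligodendrocytes, blood and choroid plexus, 0 had an adjusted permutation p under 0.05, with the smallest at 0.127. Their r lay between -0.40 (Amigo2 with astrocytes) and 0.47 (Amigo2 with choroid plexus), and between -0.49 (Pcp4 with microglia) and 0.53 on deviations from the group means.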
